A study of Mus musculus with 3 samples.

Results

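The transforming growth factor β (TGF-β) and bone morphogenetic protein (BMP) pathway was read here through 10 genes, taken by name. They are the ligands Tgfb1, Tgfb2, Tgfb3, Bmp4 and Inhba, the receptors Tgfbr1 and Tgfbr2, the signal transducer Smad3, and the target and inhibitor genes Smad7 and Id1. All probes that the platform annotation pairs with these symbols were taken, 18 probes for 10 of the 19057 genes named on the array. RNA of 3 mouse lung cancer cell lines was hybridised to Illumina whole-genome bead arrays, with 1 array per line. The LLC/luc P cells are the parental line, Lewis lung carcinoma cells of C57BL/6 background that carry luciferase. LLC/luc BM1st cells were cultured from bone lesions that formed after intracardiac injection of the parental cells into mice, and LLC/luc BM2nd cells from bone lesions formed by the BM 1st cells in a different mouse. All 3 lines thus share the strain background and the luciferase gene, and each sub-line comes from 1 selection. No sort or clonal isolation of the cultures is described in the sources used here. The study compared the lines to find genes that go with metastasis to bone.

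TGF-β ligands bind the serine/threonine kinase receptors encoded by Tgfbr1 and Tgfbr2, which phosphorylate SMAD2 and SMAD3. These move to the nucleus with SMAD4 and switch on target genes, among them Smad7, whose product shuts the receptor off. BMP ligands work through related receptors and other SMADs and induce the Id genes, which encode inhibitors of basic helix-loop-helix transcription factors. Bone matrix stores latent TGF-β that osteoclasts release when they resorb bone, and the response of tumour cells to it is a classic part of osteolytic metastasis.

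The deposited values are linear intensities with the background left in. With 1 array for a line no p-value can be had, and the number of arrays sets the precision. The background of an array was the 95th percentile over 1506 probes for olfactory or vomeronasal receptors, which came to 109 (parental), 110 (BM 1st) and 107 (BM 2nd). A gene was compared if either array of the pair read its brightest probe above that level, and called higher or lower if the log2 ratio passed 1 or -1, the threshold of the study. As a scale for the error, the receptor probes had an SD of 0.12 in each log2 ratio, and 3154 genes with 2 or more probes above background on all arrays had a median SD between probes of 0.14 for log2 BM 2nd/P. Neither scale holds the difference between repeat cultures of a line, and the receptor probes lie near background. Intensity on a bead array depends on the probe, so levels were compared between lines and never between genes. Sums of intensity over a list keep the background and give most weight to bright probes. In RNA of whole cultures, fewer cells of a type and less RNA per cell cannot be told apart. Of 8 carcinoma markers, Krt8 and Krt18 were well above background in all lines, and Epcam, Krt19, Nkx2-1 and Sftpc were above it on no array.

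Of the 10 genes 7 were above background on all 3 arrays and could be compared, and Bmp4, Inhba and Smad7 were above it on none. None of the 7 was higher or lower in BM 2nd cells than in parental cells. In that comparison 3.36% of the 10580 genes compared passed the threshold in either direction. The log2 BM 2nd/P ratios of the 7 lay between -0.41 for Tgfb1 and 0.44 for Tgfb2, with a median of 0.07 beside 0.01 over all genes compared. In BM 1st cells 1 of the 7, Id1, was lower than in parental cells, where 1.79% of 10380 genes were lower and 3.83% passed in either direction. The same gene was higher in BM 2nd cells than in BM 1st, where 3.01% of 10564 genes were higher and 4.79% passed in either direction. The 3 comparisons share arrays, and both counts of Id1 rest on its 1 value in BM 1st cells. Past a log2 ratio of 0.5 there were 0 members in BM 2nd against parental cells, 3 in BM 1st against parental cells (Tgfb2, Tgfbr2 and Id1) and 1 between the sub-lines (Id1), beside 17.4%, 17.2% and 20.3% of all genes.

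**Figure D1:**
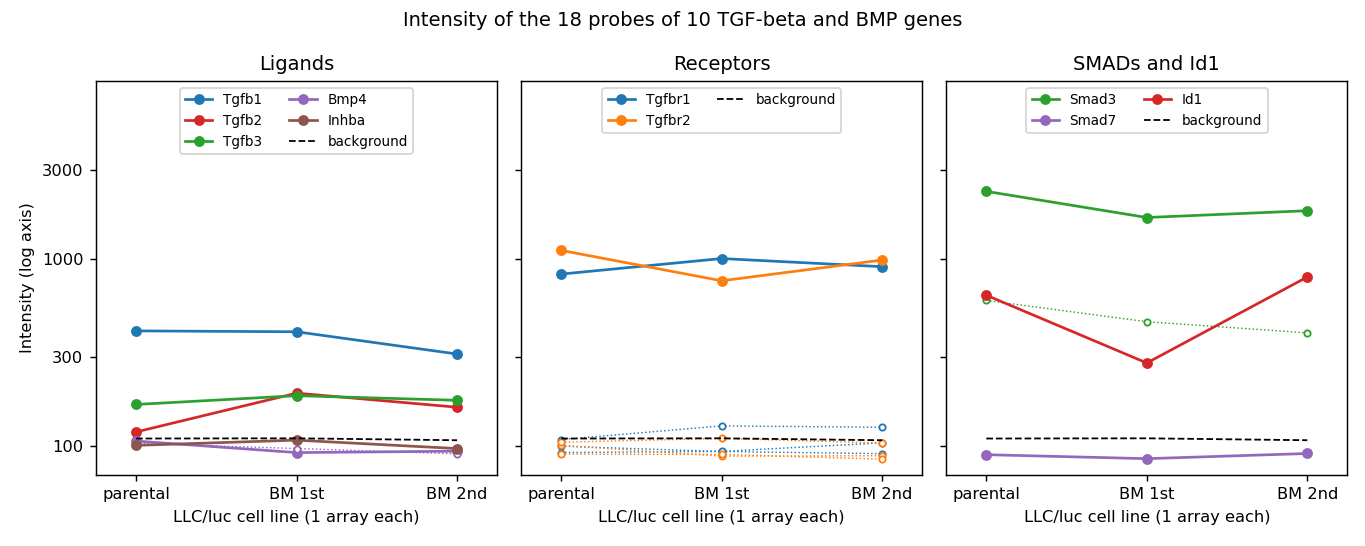
Intensity (vertical log axis) of the 18 probes in the parental, BM 1st and BM 2nd lines, each on 1 array; thick lines with filled points are the brightest probe of a gene, thin dotted lines with open points its other probes, and the dashed black line the background of each array. Id1 drops from 641 to 278 in BM 1st cells and stands at 803 in BM 2nd cells, while the brightest probes of Bmp4, Inhba and Smad7 stay under the background line.

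Among the ligands, Tgfb1, which encodes the main form of TGF-β in bone, read 413 in the parental line, 409 in BM 1st and 310 in BM 2nd. The first 2 were nearly equal and BM 2nd cells were the lowest, 1.33-fold under the parental line, at log2 BM 2nd/P -0.41 and log2 BM 2nd/BM 1st -0.40. Both ratios were larger than the spread between probes of a gene but well under the threshold, and the BM 2nd/P ratio ranked 1205 from the lowest of 10580 genes. Tgfb2, the form prominent in epithelial and embryonic tissues, stood at 119 in the parental line, 192 in BM 1st and 161 in BM 2nd. Both sub-lines were above the parental line, where the probe was close to the background of 109. The log2 BM 1st/P ratio was 0.69, the largest of the 7 genes in that direction, and the log2 BM 2nd/P ratio was 0.44. Since the background remains in these values, the ratio of so dim a probe is smaller than the change in its RNA. With the median of the receptor probes subtracted on each array, the values became 25.9, 99.3 and 69.1, and the log2 ratios to parental cells 1.94 and 1.41, past the threshold in both sub-lines. After that subtraction 5.96% of all genes compared were higher in BM 1st and 5.93% in BM 2nd, and the parental value then rests on a small difference from the background. Tgfb3, the third TGF-β form, was read at 167, 186 and 175, and its log2 ratios to the parental line, 0.16 for BM 1st and 0.07 for BM 2nd, lay within 2 SD of the receptor probes.

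Bmp4, a bone-inducing BMP, and Inhba, which encodes the βA subunit of activins, were not above background in any line. The Bmp4 probes read 106, 92.0 and 93.7 and 103, 96.8 and 90.6 in parental, BM 1st and BM 2nd cells, and the Inhba probe 101, 107 and 96.7. No fold is given for these genes. At this level a probe barely responds to its RNA, and the values do not show that the lines were alike.

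**Figure D2:**
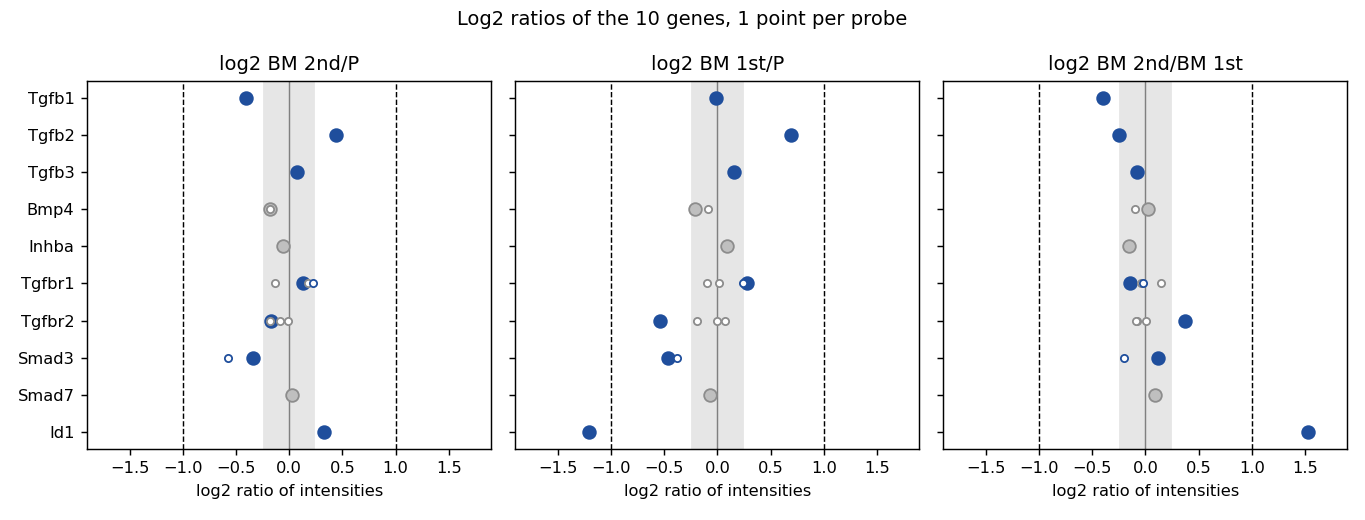
Log2 ratio of intensities (horizontal axis) for each of the 10 genes in the 3 comparisons, 1 point per probe and 1 array per line. Large filled points are the brightest probe, small open points the others, blue marks probes above background in some line and grey those on none; the grey band is 2 SD of the receptor probes and dashed lines mark 1 and -1. Id1 alone is past a dashed line, at -1.21 for BM 1st/P and 1.53 for BM 2nd/BM 1st.

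Neither receptor passed the threshold between any of the lines. Tgfbr1, the type I receptor that carries the signal to the SMADs, read 832 in the parental line, 1008 in BM 1st and 912 in BM 2nd on its brightest probe, with log2 ratios to parental cells of 0.28 and 0.13. Of its other 3 probes 1 was above background in both sub-lines but not in parental cells, at 108, 128 and 126, and 2 were above it on no array. Tgfbr2, the type II receptor that binds the ligand first, read 1115 in the parental line, 766 in BM 1st and 990 in BM 2nd. BM 1st cells were the lowest, with a log2 BM 1st/P ratio of -0.54, and BM 2nd cells lay near the parental value at -0.17. Only that probe of the 4 for Tgfbr2 was above background, so no other probe bears on the difference.

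Smad3 was the only member with more than 1 probe above background on all arrays. Its brightest probe read 2309 in the parental line, 1672 in BM 1st and 1818 in BM 2nd, and the other probe 601, 462 and 403. On both probes the parental line was the highest. The log2 BM 1st/P ratios were -0.47 and -0.38, and the log2 BM 2nd/P ratios -0.34 and -0.58. None was past the threshold. All were beyond 2 SD of the receptor probes, but those probes are far dimmer than the probes of Smad3. The robust SD over all genes was larger, at 0.31 for log2 BM 1st/P and 0.30 for log2 BM 2nd/P. Between the sub-lines the probes differed in sign, at 0.12 and -0.20 for log2 BM 2nd/BM 1st. The BM 1st/P ratio of the brightest probe ranked 1029 from the lowest of 10380 genes.

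Smad7, the feedback inhibitor that TGF-β induces, was read by 1 probe at 89.7 in the parental line, 85.4 in BM 1st and 91.0 in BM 2nd, under the background on every array. Id1, a direct BMP target, was the only member past the threshold. Its 1 probe read 641 in the parental line, 278 in BM 1st and 803 in BM 2nd. BM 1st cells stood apart from both other lines, 2.31-fold under the parental line at a log2 ratio of -1.21, which ranked 124 from the lowest of 10380 genes. BM 2nd cells were 2.89-fold above BM 1st cells, a log2 ratio of 1.53, which ranked 133 from the highest of 10564. Against parental cells the difference left in BM 2nd cells was 0.32 on the log2 scale. With the background subtracted the first 2 ratios became -1.56 and 1.94.

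**Figure D3:**
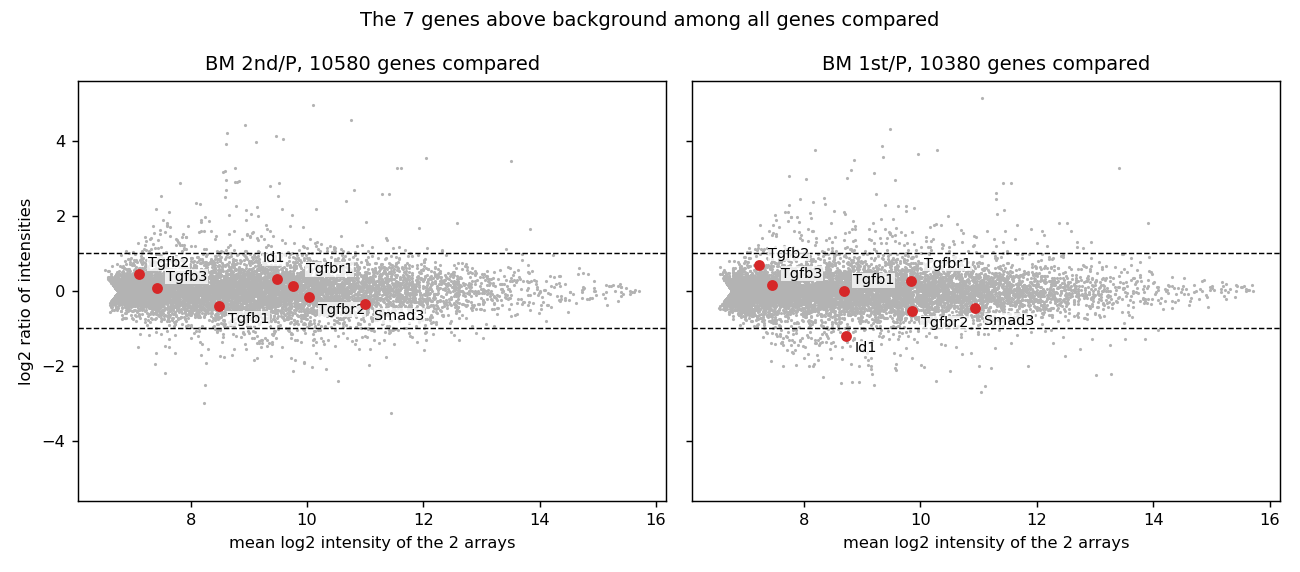
Log2 ratio (vertical axis) against the mean log2 intensity of the 2 arrays (horizontal axis) for all genes compared in BM 2nd/P (left, 10580 genes) and BM 1st/P (right, 10380 genes), with the 7 genes above background as red points and dashed lines at 1 and -1. All 7 lie within the lines on the left, and only Id1, at -1.21, lies outside them on the right.

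The other Id genes above background were Id2 and Id3, relatives of Id1 with the same kind of protein. Id3 read 530 in the parental line, 386 in BM 1st and 930 in BM 2nd on its 1 probe. Like Id1 it was lowest in BM 1st and highest in BM 2nd cells, with a log2 BM 2nd/BM 1st ratio of 1.27, past the threshold, while its log2 ratios to parental cells, -0.46 and 0.81, were not. Id2, named after its values were seen, read 462, 382 and 500 and passed no threshold, at -0.28 for log2 BM 1st/P and 0.39 for log2 BM 2nd/BM 1st. The order of the 3 lines was the same for Id1, Id2 (the brightest of 3 probes) and Id3, and the share of all genes with that order was not counted. Id4 was above background on no array.

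Genes of the cell cycle moved with Id1 between the same lines. Of 12 such genes listed 10 had a probe, all above background. In BM 1st cells all 10 had a log2 ratio to parental cells below 0 (median -1.24). Of the 10, 6 were lower past the threshold, beside 1.79% of all genes, with Tyms at -2.44 and Mcm5 at -2.42. In BM 2nd cells all 10 were again above their BM 1st value (median log2 BM 2nd/BM 1st 1.23). Past the threshold 7 were higher, beside 3.01% of all genes. None was past the threshold in BM 2nd against parental cells (median log2 BM 2nd/P 0.17). Their summed intensity was 15889 in the parental line, 6812 in BM 1st and 19145 in BM 2nd. The part of growth state in the Id1 values was not tested.

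**Figure D4:**
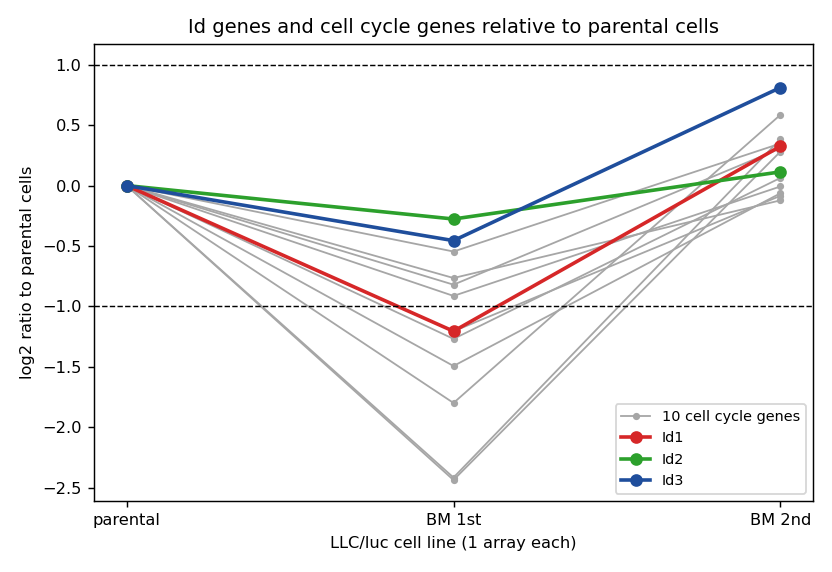
Log2 ratio to parental cells (vertical axis) of Id1, Id2 and Id3 (coloured) and of 10 cell cycle genes (grey) in the 3 lines, 1 array each, with dashed lines at 1 and -1. Every line dips in BM 1st cells, Id1 to -1.21, and in BM 2nd cells they lie between -0.12 and 0.81.

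Some genes listed as markers of host cells also differed between the lines. Among the listed genes Cd14, Pdgfra and Col3a1 were above background in the parental line too, at 294, 258 and 1107. These 3 thus do not mark host cells alone in this series. Of 10 leukocyte markers with a probe, 7 exceeded background in some line and 3, Lyz2, Laptm5 and Fcer1g, were higher in BM 1st cells than in the parental line, where 2.04% of genes compared were higher. Lyz2 and Laptm5 were also higher in BM 2nd than in parental cells. Ptprc, which encodes the pan-leukocyte antigen CD45, read 102, 111 and 104 and was above background in BM 1st only, and the monocyte marker Cd14 read 294, 501 and 363. The summed intensity of the 10 was 1192 in the parental line, 2837 in BM 1st and 1640 in BM 2nd. The sums of this and the next lists include the background of every gene. For scale, the receptor probes had a median of 92.8 in the parental line, 92.3 in BM 1st and 91.9 in BM 2nd. Tyrobp, Itgam and Cd3e were above background on no array. Of 12 stroma and osteoblast markers 2, Col1a1 and Pdgfra, were higher in BM 2nd than in parental cells, where 1.83% of genes were higher. The other Pdgfra probe gave a log2 BM 2nd/P ratio of only 0.19. Of the 9 markers compared, 5 had a log2 BM 2nd/P ratio above 0 and 4 below (Col1a2, Cxcl12, Alpl and Ibsp), with a median of 0.07. The sum over the 12 was 2430, 2766 and 4471. Sp7, an osteoblast transcription factor gene, was above background in BM 2nd only, at 103, 101 and 197, at least 1.80-fold over the parental line. The collagen gene Col3a1 read 1107, 833 and 1946 and was higher in BM 2nd against BM 1st at a log2 ratio of 1.22. Pdgfrb, Thy1 and Bglap were above background on no array. Of 7 endothelial and platelet markers only the platelet chemokine gene Pf4 was higher in BM 1st cells, at 347 against 106 in parental and 118 in BM 2nd cells. The other platelet markers passed no threshold, with Ppbp at 127, 131 and 132 and Itga2b at 144, 144 and 127. Pecam1 and Cdh5 were above background on no array. The sums over the 7 were 799, 1052 and 804. Tgfb2, Tgfb3 and Tgfbr1 had the same order of the 3 lines as the leukocyte sum, with BM 1st cells the highest and parental cells the lowest. Tgfb1, Tgfbr2, Smad3 and Id1 did not. The ratios of Tgfb3 to parental cells and the log2 BM 2nd/P ratio of Tgfbr1, 0.13, lay within 2 SD of the receptor probes. The share of all genes with the order of the leukocyte sum was not counted, so nothing is read from the shared order. Lyz2, at 79.5, 1078 and 365, contributed most to the differences in the leukocyte sum. The part of the host cell markers in the values of the members was not tested.

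Promoter sequence is shown for Tgfb2, the ligand with the largest difference, and for Id3, an Id gene past the threshold between the sub-lines. Id3 is not a member, and the promoter set used held no entry for Id1. The sequences are the 250 bases before the start site in RefSeq for GRCm38.p6, 5′ to 3′ on the strand of the gene, from chr1:186705990-186706239 on the minus strand for Tgfb2 and chr4:136143572-136143821 on the plus strand for Id3. Capitals mark the SMAD box CAGAC or its reverse complement GTCTG, the E-box CACGTG and the TATA box TATAAA, each searched on both strands.
Tgfb2: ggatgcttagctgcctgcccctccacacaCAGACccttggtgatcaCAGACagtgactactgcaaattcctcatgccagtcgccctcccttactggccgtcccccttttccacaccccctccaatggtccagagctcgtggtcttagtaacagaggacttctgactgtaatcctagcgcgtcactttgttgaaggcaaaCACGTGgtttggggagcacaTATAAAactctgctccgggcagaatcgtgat
Id3: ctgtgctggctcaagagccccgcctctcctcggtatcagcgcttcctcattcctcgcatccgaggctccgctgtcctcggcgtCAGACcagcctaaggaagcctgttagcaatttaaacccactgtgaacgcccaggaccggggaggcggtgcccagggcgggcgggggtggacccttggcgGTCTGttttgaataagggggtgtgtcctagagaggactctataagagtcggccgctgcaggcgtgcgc

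In Tgfb2 a TATA box began at position -31, counted back from the start site, an E-box at -51 and SMAD boxes at -221 and -204. In Id3 SMAD boxes began at -167 and -68. For 7 members 8 windows were used, 2 of them for Tgfbr1. No window was used for Id1, Tgfb3 and Smad7, so the counts below do not cover these genes. The SMAD box was in 3 of the 8 (Tgfb2, Tgfbr2 and 1 of the Tgfbr1 windows), the E-box in 2 (Tgfb2 and Bmp4) and the TATA box in 2 (Tgfb2 and Inhba). Of all 32851 windows 42.2% held the SMAD box, 6.02% the E-box and 12.4% the TATA box. A match of letters is a description of the sequence and shows no binding.

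The rest of the pathway was described with 8 lists of 92 genes, of which 82 had a probe and 53 exceeded background in some line. In BM 2nd cells 3 of 50 genes compared were higher than in parental cells and 1 was lower, beside 1.83% and 1.53% of all genes, and all 4 belong to the list of TGF-β targets. In BM 1st cells 1 of 48 was higher and 1 lower, beside 2.04% and 1.79%. Between the sub-lines 2 of 52 were higher and 2 lower in BM 2nd cells, beside 3.01% and 1.78%. The medians over these genes were 0.03, 0.14 and -0.01, beside 0.01, -0.01 and -0.01 over all genes. In BM 1st against parental cells 33 of the 48 log2 ratios were above 0 and 14 below. The share above 0 over all genes was not counted, but their median of -0.01 puts no more of them above 0 than below. The robust SD of log2 BM 1st/P over all genes was 0.31, larger than the list median. Some of the 33 came from probes close to background.

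Of the other 16 ligands with a probe, none was past the threshold in any comparison and 10 were above background on no array, among them Bmp2, Bmp6 and Bmp7. Of the other 11 receptors 9 were above background. Acvr2b, a type II receptor of activins, was lower in BM 2nd cells than in BM 1st, reading 873 in the parental line, 1338 in BM 1st and 584 in BM 2nd, a log2 ratio of -1.20. The parental value lay between those of the sub-lines. Among receptors named after their values were seen, Tgfbr3, which encodes the co-receptor betaglycan, read 1400, 1862 and 1924, and Eng, which encodes the co-receptor endoglin, 415, 260 and 347. None of the 4 other SMADs with a probe was past the threshold. Smad1, Smad2 and Smad5, which pass on BMP or TGF-β signals, had log2 BM 2nd/P ratios of -0.17, -0.22 and 0.18, and Smad9 was above background on no array.

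Inhibitors outside and inside the cell were within the threshold as deposited, with exceptions under other processing. Of 13 extracellular antagonists with a probe 7 were above background on no array, among them Nog, which encodes the BMP antagonist noggin. Grem1, a BMP antagonist named after its values were seen, read 130 in the parental line, 234 in BM 1st and 136 in BM 2nd, with a log2 BM 1st/P ratio of 0.84. With the background subtracted that ratio became 1.91, and in BM 2nd against BM 1st cells Grem1 and Fstl3, a follistatin-like antagonist gene also named after its values were seen, were then lower at -1.69 and -1.28. Of 10 genes of ligand latency and activation 9 were above background and none was past the threshold, with medians of 0.13 for log2 BM 2nd/P and 0.29 for log2 BM 1st/P. All 8 intracellular inhibitors with a probe were above background, with medians of -0.07 and 0.09. The lowest log2 BM 2nd/P ratio among them was -0.79, for Ppm1a, a phosphatase of SMADs, also named after its values were seen. Tgif1, a SMAD corepressor gene named in the same way, was lower in BM 2nd against BM 1st cells when its probes were averaged, and was within the threshold at -0.72 on its brightest probe.

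The 12 TGF-β targets with a probe, 10 of them above background, did not share a direction. Bhlhe40, which encodes a transcription factor, was higher in both sub-lines, reading 343 in the parental line, 1041 in BM 1st and 1159 in BM 2nd, with log2 ratios to the parental line of 1.60 and 1.76. Junb, an AP-1 subunit gene, read 2893, 3914 and 6363 and was higher in BM 2nd cells at 1.14. Its other probe was above background on no array. Tgfbi, a matrix protein gene named for its induction by TGF-β, stood at 734, 413 and 1478. It was lowest in BM 1st cells, with log2 BM 2nd/P at 1.01, just past the threshold, and log2 BM 2nd/BM 1st at 1.84. Its other probe gave 0.32 and 0.94, and the mean of both probes was within the threshold for BM 2nd/P. Il11, an osteoclast-stimulating cytokine gene, went the other way with 706, 510 and 206, at log2 BM 2nd/P -1.78. Snai2, a transcription factor gene of epithelial-mesenchymal transition, read 1012, 485 and 687 and was lower in BM 1st cells at -1.06. Several of these genes also answer to other signals. The list median of log2 BM 2nd/P was 0.10. Of the 8 BMP targets with a probe only Id2 and Id3 were above background.

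**Figure D5:**
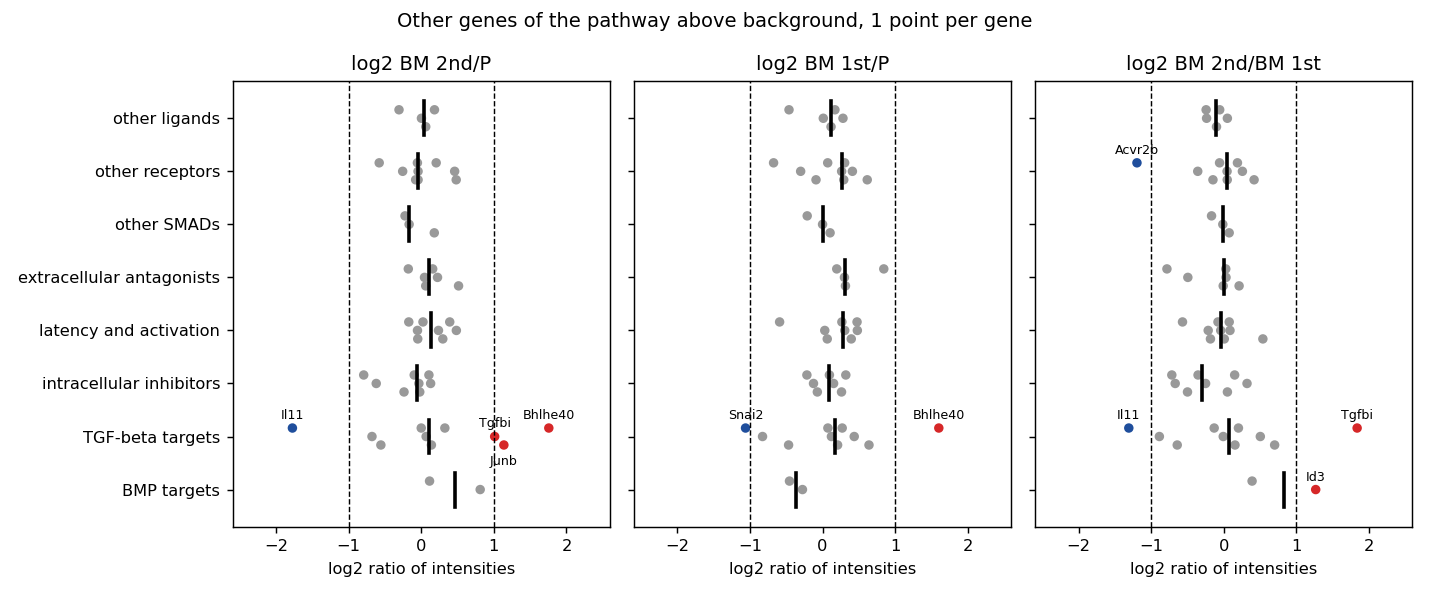
Log2 ratio of intensities (horizontal axis) of the genes compared in each of 8 pathway lists, 1 point per gene and 1 array per line. Black bars are list medians, dashed lines mark 1 and -1, red points are higher and blue points lower; the named points past the lines are Acvr2b, Id3 and 5 TGF-β targets, and all list medians of BM 2nd/P lie between -0.17 and 0.46.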

How the data were processed

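The 3 lines were grouped by the submitters' labels, and total RNA of each was hybridised to 1 single-colour Illumina bead array. The deposited values are linear intensities of 45281 probes. Per the submitters' processing notes the authors used GenomeStudio 2011.1, with options not given in the sources used here. Sorted intensities differed between arrays by at most 0.274, as after quantile normalization, and none was under 60.2, so background was still included.

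Symbols were taken from the annotation of the platform and updated by gene ID to RefSeq (GRCm38.p6). There 34885 probes matched 1 gene, 18 matched several and 10378 matched none. The brightest probe by mean log2 intensity stood for a gene. Ratios and plots were made in Python 3.11.15 (numpy 2.4.6, pandas 2.3.3, matplotlib 3.10.9), and the counting of calls was tested on simulated data. The members and lists were chosen with earlier results of these data known. All members were named, and up to 6 genes per pathway list that passed the threshold; any other pathway gene given with values in all lines is there as a list description or marked as named after its values were seen. Alternatives changed the background filter, the background level, the choice of probe, the centring, the subtraction of background (floor of 16) and the threshold (0.5). With 1 array per line no test was made.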

Additional observations from a re-analysis of the deposited data

Results flagged for a closer look

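Of 59 members and pathway genes compared between the sub-lines, 4 stood on opposite sides of the parental line in the sub-lines and differed between them past the threshold (6.78%). Over all genes compared 370 of 10564 did so (3.5%), and 7 of 32 marker and cell cycle genes. The 4 were Id1, with a log2 BM 2nd/BM 1st ratio of 1.53, Id3 with 1.27, Tgfbi with 1.84 and Acvr2b with -1.20. Id1, Id3 and Tgfbi read below the parental line in BM 1st cells and above it in BM 2nd cells, and Acvr2b was the reverse. With 1 array per line these differences were not tested.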

How the results depend on the processing

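For the members, no call changed with no background filter, with background required on both arrays or set at the 99th percentile, with probes averaged, or with centring, which moved ratios by at most 0.04 on the log2 scale. Id1, the only member called, has 1 probe well above background. The filters and the averaging thus could not change its call and are no check of it. With background subtracted 1 member was past the threshold in BM 2nd against parental cells and 2 in BM 1st against parental cells, Tgfb2 being the one added. At a threshold of 0.5 there were 3 in BM 1st against parental cells, with Tgfb2 and Tgfbr2 added, where 17.2% of all genes passed. Of the pathway genes, 2 in place of 4 were past the threshold in BM 2nd against parental cells when all probes were averaged, and 11, 8 and 13 passed a threshold of 0.5 in BM 2nd against parental, BM 1st against parental and BM 2nd against BM 1st cells. Of 147 recomputed member ratios 134 moved by less than the median SD between probes of a gene and 13 by more. Of the latter 5 came from averaging probes and the rest from background subtraction. Many of the 134 could not move. The 7 members compared were above background on all arrays, so the filters left their ratios as they were. Averaging could not move Tgfb1, Tgfb2, Tgfb3 or Id1, which have 1 probe each. The called ratios, all of the Id1 probe, kept their sign. For Smad3 the uncalled log2 BM 2nd/BM 1st ratio of 0.12 became -0.04 with probes averaged, and for Tgfbr2 log2 BM 1st/P became -0.17 when the probes under background were averaged in. Among pathway inhibitors, Grem1 in BM 1st against parental cells and Grem1 and Fstl3 between the sub-lines were past the threshold only with background subtracted, and Tgif1 between the sub-lines only with probes averaged, apart from the lower threshold. No paired analysis was possible because each line has 1 array. Dim probes such as those of Tgfb2, Bmp4, Inhba and Smad7 limit what can be read, since their signal is mostly background.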
